A study of Homo sapiens with 4 samples.

Results

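The long intergenic noncoding RNA genes, whose symbols are LINC followed by digits, were followed through a pull-down with a biotin-carrying microRNA. Members were the lncRNA genes with such a symbol and a mean normalised count of at least 50 over the 4 libraries, which gave 88 of the 12662 genes past that minimum and of the 60554 genes in the table. RefSeq lists 2304 LINC genes, of which 1932 were matched to the table by position and 1931 of these carry the lncRNA class. Of those 1931 genes, 1167 had no count in any library. The minimum was the only measured value used in choosing the members. The 3 members just inside it were LINC00324 (50.3), LINC03011 (51.3) and LINC02976 (51.9), and the 3 LINC genes just outside it were LINC02916 (49.2), LINC01854 (49.1) and LINC01089 (47.8).

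All 4 libraries came from IGROV1-R10 cells, an ovarian carcinoma line derived from IGROV1. Cells were transfected at 60 nM with biotin-carrying miR-491-5p or with a biotin-carrying worm microRNA, named cel-miR-65 in the series' design text, as the control. From each lysate, cleared of nuclei and debris, 10% served as the input, while the remainder spent 4 h on streptavidin beads that were washed 5 times to give the pull-down. Each group is thus 1 library, pooled from the RNA of 3 runs of the experiment, with an input and a pull-down for each microRNA. No spread between the runs can be measured, and the 95% intervals given below cover counting error only. Of 10 markers of ovarian carcinoma and epithelium, 9 passed the count minimum.

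A microRNA is loaded into an Argonaute protein and pairs with its target RNAs mainly through its seed. An RNA held by the tagged microRNA should come down with it on streptavidin, while RNA that sticks to beads or tag comes down with any microRNA, which the control is meant to show. LINC symbols are names given to long noncoding genes between protein-coding genes and say nothing of what the RNA does. Some of these RNAs stay in the nucleus, some act in the cytoplasm, and some carry microRNA sites.

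The mature miR-491-5p is shown first, since its seed defines the site looked for; capitals mark bases 2 to 8. It lies on chromosome 9, plus strand, at chr9:20716120-20716141 of GRCh38.p14 in RefSeq.
hsa-miR-491-5p: aGUGGGGAacccuuccaugagg

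The DNA letters of the site that pairs with the seed are TCCCCAC, searched on the gene's own strand. RefSeq start windows of 300 bases, from 250 before to 50 after a start, were at hand for 66 of the 88 members. The site was in 5 of these 66 windows (7.58%) and in 4.98% of all 35116 windows of that length. Those 5 members were LINC00324, LINC01159, LINC01409, LINC01506 and LINC01521. Within the 50 transcribed bases the site was found in LINC01159 alone (1.52% of the 66, against 0.552% of all windows). The rest of the members' exons was not searched. The first 50 transcribed bases of LINC01159, with the site in capitals, are printed beside those of 4 of the 6 members that passed 2-fold in the enrichment. Those 4 have a RefSeq start within 50 bases of the start in the table. LINC01106 has a window too, but its RefSeq start lies 94 bases away, and LINC00239 had no window here. They lie at chr2:104872546-104872595 (minus strand), chr1:47179250-47179299 (plus), chr11:13924814-13924863 (minus), chr13:47932573-47932622 (minus) and chr11:112270749-112270798 (plus), in the order shown.
LINC01159: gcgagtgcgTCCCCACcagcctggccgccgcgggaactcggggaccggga
LINC00853: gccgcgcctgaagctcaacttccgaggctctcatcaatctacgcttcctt
LINC02683: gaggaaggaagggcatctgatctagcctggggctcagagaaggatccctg
LINC00562: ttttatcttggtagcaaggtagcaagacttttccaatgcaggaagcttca
LINC02762: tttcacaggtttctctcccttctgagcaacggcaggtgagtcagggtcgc

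LINC01159, the member with the site in its first bases, had normalised counts of 94.0 (input) and 52.6 (pull-down) for miR-491-5p and 112 (input) and 65.7 (pull-down) for the control. Both pull-downs lay below both inputs. Its enrichment was -0.07 (-0.71 to 0.57) on the log2 scale, an interval that holds 0.

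The libraries held 59588552, 61705443, 47679684 and 62582646 counted reads, in the order of input and pull-down with miR-491-5p, then input and pull-down of the control, which is kept below wherever 4 values stand alone. The members took 0.0464%, 0.0625%, 0.0467% and 0.0590% of them. Counts of single members ran from 15 to 7689 reads, so many ratios carry a wide counting error. The control input stands apart from the other libraries: summed normalised counts of 16 matched hepatocyte markers were 3730 there and 28.2, 41.2 and 34.6 elsewhere, and none of the 16 was at 0 there, while 6 to 8 were at 0 in the others. Fibroblast markers summed to 306, 62.3, 777 and 60.4 over the 4 libraries. The enrichment, the input ratio and the control pull-down over its input use that library, and its part in their values is given where it was measured.

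The members were mostly low in abundance. Mean normalised counts ran from 50.3 to 6094 with a median of 127, 35 members lay under 100 and 7 over 1000. Per kilobase of exon, LINC00958 led with 2123, followed by LINC02274 (1009), LINC02986 (602), LINC02244 (579), LINC01963 (566), LINC00857 (475), LINC01151 (469) and LINC00621 (454), as mean normalised counts per kilobase. LINC00958, an RNA first described in bladder cancer, had normalised counts of 5730 in the input and 5797 on the beads with miR-491-5p, against 6020 and 6828 with the control. It was close to even across the libraries, with the control pull-down a little higher. Exon length ran from 198 bases (LINC02244) to 9470 (LINC01128) with a median of 2654.5. Chromosome 1 held 15 members and chromosome 2 held 13. For 37 members no exon of another counted gene lay within the gene's span, and 34 shared exon bases with another gene. The spans of 6 members overlapped a protein-coding gene despite the name. Among these were LINC00216 (ARMH4), LINC00294 (CSTF3 and TCP11L1), LINC00863 (NUTM2D) and LINC01159 (POU3F3).

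The first question was which LINC RNAs came down with miR-491-5p beyond the control, as the design defines it: the ratio between the 2 pull-downs (miR-491-5p to control) over the ratio between the 2 inputs. On this enrichment LINC00239, LINC00853 and LINC02683 were at least 2-fold higher and LINC02762, LINC01106 and LINC00562 at least 2-fold lower, each with a 95% counting interval that excluded 0. The other 82 members did not pass both criteria. Of all genes, 4.46% passed in the higher and 5.32% in the lower direction, against 3.41% of the members in each, so LINC genes passed no more often than genes at large. The median enrichment was -0.0022 for the members and 0.0016 for all genes, and 44 of the 88 members lay above 0. Leaving out the control input, which reduces the enrichment to the ratio between the pull-downs, ended 4 of the 6 calls: LINC00239 had 0.84, LINC02683 0.66, LINC01106 -0.84 and LINC00562 0.09, and the calls on LINC00853 and LINC02762 stood. With 1 library per group there is no test of these values.

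LINC00239 lies on chromosome 14 from 101730437 to 101732522 (GRCh38, plus strand, 4 exon blocks). It had normalised counts of 61.6 (input) and 43.7 (pull-down) for miR-491-5p and 92.5 (input) and 23.98 (pull-down) for the control. Both pull-downs lay below their inputs, and the control pull-down was by far the lowest of the 4. Its enrichment was 1.42 (0.59 to 2.24).

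LINC00853, next to PDZK1IP1 on chromosome 1 from 47179250 to 47180339 (plus strand, 2 exon blocks), showed the same order. Normalised counts were 78.4 in the input and 50.9 on the beads with miR-491-5p, against 80.9 and 19.5 with the control. The inputs were nearly equal and the control pull-down was the low library. Its enrichment was 1.38 (0.54 to 2.23) and its ratio between the pull-downs alone was 1.34 (0.64 to 2.03).

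LINC02683 lies near SPON1, the gene of an extracellular matrix protein, on chromosome 11 from 13921450 to 13924863 (minus strand, 2 exon blocks). Its counts after normalisation were 95.1, 83.3, 123 and 52.4 over the 4 libraries. Again the control pull-down was lowest. Its enrichment was 1.03 (0.41 to 1.65), close to the 2-fold criterion, which it missed with a pseudocount of 5 (0.98).

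LINC02762 was lowest in the enrichment, at -1.12 (-1.59 to -0.64). It lies on chromosome 11 from 112270749 to 112362534 (plus strand, 7 exon blocks). Its normalised counts were 145 (input) and 102 (pull-down) for miR-491-5p and 144 (input) and 220 (pull-down) for the control. The inputs were level, the miR-491-5p pull-down lay below them and the control pull-down above them.

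LINC01106, on chromosome 2 from 110375138 to 110384442 (minus strand, 4 exon blocks), had 298 in the input and 293 on the beads with miR-491-5p, against 249 and 524 with the control, as normalised counts. The control pull-down alone stood out. Its enrichment was -1.09 (-1.42 to -0.77).

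LINC00562, a gene of 1 exon block near SUCLA2 on chromosome 13 from 47930153 to 47932622 (minus strand), had normalised counts of 95.1, 87.3, 42.4 and 81.7 in the same order. Here the control input was the low library, and the pull-downs differed by only 0.09 (-0.31 to 0.50) on the log2 scale. Its enrichment was -1.05 (-1.75 to -0.35), and -0.99 with a pseudocount of 5.

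**Figure D1:**
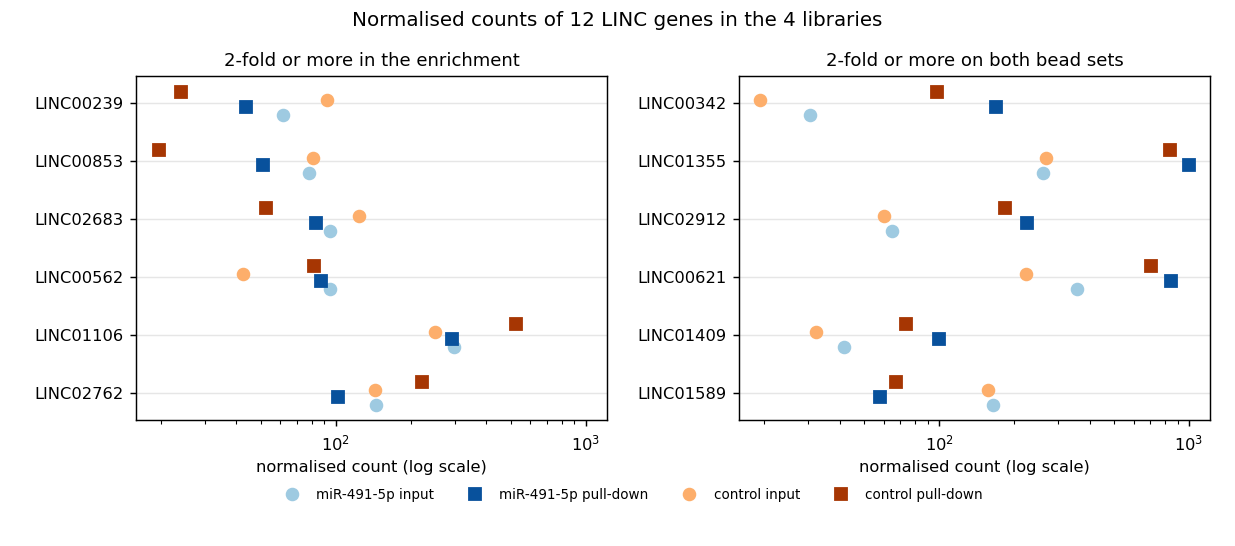
Normalised counts (log scale) of 12 LINC genes in the 4 libraries, circles for inputs and squares for pull-downs, blue for miR-491-5p and orange for control; each point is 1 library. On the left are the 6 members past 2-fold in the enrichment, where LINC00239, LINC00853 and LINC02683 have their lowest point in the control pull-down (23.98, 19.5 and 52.4), and on the right the 6 past 2-fold on both bead sets, where both squares lie on one side of both circles.

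The enrichment can be taken apart into the pull-down over input of each transfection. None of LINC00239, LINC00853 and LINC02683 stood above its own input on the miR-491-5p beads: their log2 ratios there were -0.49 (-1.02 to 0.04), -0.61 (-1.09 to -0.13) and -0.19 (-0.59 to 0.22). On the control beads the same ratios were -1.90 (-2.54 to -1.27), -2.00 (-2.69 to -1.30) and -1.22 (-1.69 to -0.75). With the miR-491-5p input in place of the control input, which removes the library with hepatocyte markers, the control values were -1.33, -1.95 and -0.85.

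Over all members with an enrichment interval above 0, which were 17, the miR-491-5p pull-down lay above its input in 6, below it in 2 and within counting error of it in 9. The control pull-down of those 17 lay below its input in 10. In the 22 members with an enrichment interval below 0, the control pull-down lay above its input in 14 and the miR-491-5p pull-down below its input in 9. Among all 88 members the miR-491-5p pull-down lay above its input in 30 and below it in 25. The control pull-down lay above its input in 35 and below it in 27. The enrichment is built from these ratios, so members chosen on it lean to such values by construction. Of all 12662 genes, 4479 had an enrichment interval above 0. A miR-491-5p pull-down above its input was found in 35.4% of these and in 35.3% of the 17 members, and a control pull-down below its input in 79.7% and 58.8%. An enrichment interval below 0 was found in 4475 of all genes, with the control pull-down above its input in 2788 of them and the miR-491-5p pull-down below its input in 2731.

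The 6 members above both the control and their own input, a selection made after their values were seen, were LINC02976, LINC01320, LINC00857, LINC00899, LINC01572 and LINC01355. LINC00857, an RNA described as promoting growth in several carcinomas, was the most abundant of them. It had normalised counts of 930 (input) and 1417 (pull-down) for miR-491-5p and 908 (input) and 868 (pull-down) for the control. The inputs and the control pull-down were close together and the miR-491-5p pull-down was higher than all of them. Its enrichment was 0.67 (0.49 to 0.85), a 1.59-fold difference below the 2-fold criterion.

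LINC01320 had the same pattern. Normalised counts were 229 in the input and 467 on the beads with miR-491-5p, against 218 and 249 with the control. Its enrichment was 0.84 (0.49 to 1.20), and its miR-491-5p pull-down over input was 1.03 (0.80 to 1.25) against 0.19 (-0.09 to 0.46) on the control beads. LINC00899 had 184, 382, 128 and 192 in the order used above, with both pull-downs above their inputs and an enrichment of 0.47 (0.05 to 0.90). The enrichments of the others were 0.87 (0.06 to 1.68) for LINC02976, 0.42 (0.02 to 0.82) for LINC01572 and 0.30 (0.01 to 0.59) for LINC01355, with lower bounds close to 0. LINC02976, just inside the count minimum at 51.9, was highest in the miR-491-5p pull-down and may be a member through that library. The ratio between the pull-downs leaves out the control input. It was 0.43 for LINC02976, 0.20 (-0.04 to 0.43) for LINC01572 and 0.26 (0.13 to 0.38) for LINC01355. For LINC00857, LINC01320 and LINC00899 it was 0.71, 0.91 and 0.99. LINC01572 shares 31.8% of its exon bases with other genes, where reads cannot be placed.

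**Figure D2:**
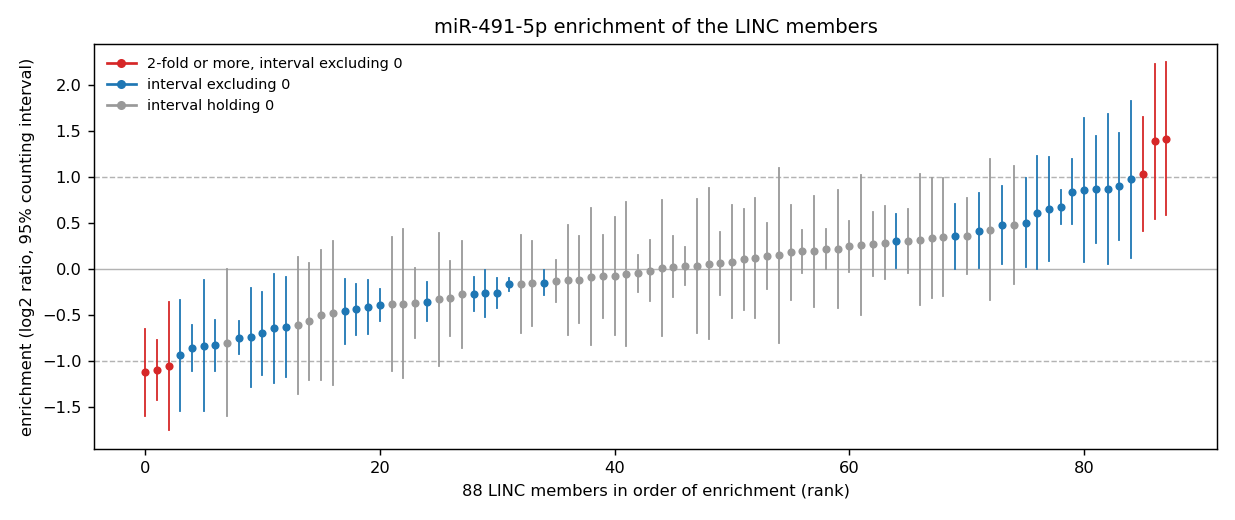
Enrichment (log2 ratio) of the 88 LINC members by rank, each point with its 95% counting interval; red marks 2-fold or more with an interval excluding 0, blue an interval excluding 0 only, grey an interval holding 0. The values run from -1.12 to 1.42 around a median near 0, and the 6 red points lie at the ends.

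Scaling decides the balance of these calls. With total counts in place of size factors, the median enrichment of all genes moved from 0.0016 to 0.18, and 9 members passed as higher and 0 as lower, in place of 3 and 3. Among all genes the calls were then 888 higher and 445 lower, in place of 565 and 673.

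Between the pull-downs alone, LINC00853 (1.34) and LINC00324 (1.28, 0.63 to 1.92) were at least 2-fold higher with miR-491-5p. LINC01322 (-1.28, -1.66 to -0.90) and LINC02762 (-1.10, -1.41 to -0.80) were at least 2-fold lower. That is 2.27% of the members in each direction, against 2.50% of all genes higher and 3.17% lower. With total counts 5 members were higher and 1 lower, beside 522 and 263 of all genes. This ratio does not use the control input.

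LINC00324 had normalised counts of 66.9 (input) and 57.4 (pull-down) for miR-491-5p and 54.0 (input) and 23.1 (pull-down) for the control. As with LINC00853, the control pull-down was the low library. LINC01322, a gene of 12 exon blocks, had 73.1, 63.1, 114 and 155 in that order. It was lower with miR-491-5p in the inputs too, at -0.64 (-1.09 to -0.19).

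The inputs address whether the transfected microRNA went with a change in RNA level. LINC00562 was the sole member past 2-fold, higher with miR-491-5p at 1.15 (0.58 to 1.72), and 0 members passed as lower. Of all genes, 0.727% were higher and 0.513% lower. The median input ratio was 0.053 for the members and -0.0050 for all genes. Since the control input holds the hepatocyte markers, each input ratio carries that library, and its part in them was not tested. In bulk RNA, fewer cells of a type and less RNA per cell cannot be told apart.

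The lowest input ratio belonged to LINC00941, an RNA described in gastric and colorectal carcinoma, at -0.87 (-1.05 to -0.68). Its counts after normalisation were 416 in the input and 264 on the beads with miR-491-5p, against 759 and 406 with the control. Both libraries of the miR-491-5p cells lay below their control counterparts, and both pull-downs below their inputs. Its enrichment, which divides the input difference out, was 0.25 (-0.03 to 0.52). LINC01322 (-0.64), LINC00239 (-0.58), LINC02274 (-0.45), LINC00294 (-0.34) and LINC00630 (-0.30) followed. On the other side, after LINC00562, came LINC01521 (0.87), LINC01140 (0.86), LINC00621 (0.68), LINC02832 (0.61) and LINC01833 (0.59), as log2 input ratios.

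Larger differences than those between the microRNAs lay between beads and lysate. Here LINC00342, LINC01355, LINC02912, LINC00621 and LINC01409 were at least 2-fold higher on both bead sets, and LINC01589 at least 2-fold lower on both. These 5 make up 5.68% of the members, against 2.66% of all genes, and the 1 lower member 1.14%, against 2.84% of all genes. Other lncRNA genes passed more often than the members, at 10.8% higher and 4.42% lower on both. The count minimum is a mean over inputs and pull-downs, so a gene low in the inputs can be a member through its pull-downs. That holds for LINC00342 (inputs of 30.3 and 19.3) and LINC01409 (41.8 and 32.1), and its part in these shares was not tested. On the miR-491-5p beads alone 7 members (7.95%) were higher and 3 (3.41%) lower. The shares were 5.34% and 4.96% of all genes, and 14.6% and 8.41% of other lncRNA genes. On the control beads 11 members (12.5%) were higher and 8 (9.09%) lower. The shares were 8.61% and 10.0% of all genes, and 19.0% and 9.96% of other lncRNA genes. With total counts these splits became 17 and 1 on the miR-491-5p beads, 16 and 7 on the control beads, and 9 and 1 on both. Those of all genes were then 1284 and 130, 1373 and 820, and 577 and 78, so the shift was one of all genes. With the control input left out and the miR-491-5p input in its place, 3 members were higher and 1 lower on both. A stricter match of gene names left 76 members, of which 3 were higher and 1 lower on both.

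LINC00342, an RNA described in lung carcinoma, was the furthest up. Its normalised counts were 30.3 (input) and 168 (pull-down) for miR-491-5p and 19.3 (input) and 97.7 (pull-down) for the control. Both pull-downs were several times their inputs, by 5.41-fold and 4.87-fold. It lies on chromosome 2 from 95807118 to 95816215 (minus strand, 4 exon blocks).

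LINC01355, a gene of 1 exon block on chromosome 1 from 23281309 to 23286752 (minus strand) near HNRNPR, which encodes an RNA-binding protein, had normalised counts of 260 in the input and 999 on the beads with miR-491-5p, against 269 and 837 with the control. Inputs were level and both pull-downs over 3-fold higher, at 3.83-fold and 3.11-fold. LINC02912, of 1 exon block on chromosome 8, had 64.8, 226, 60.4 and 184 in that order, again with level inputs.

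LINC00621 had normalised counts of 357 (input) and 851 (pull-down) for miR-491-5p and 222 (input) and 704 (pull-down) for the control. It shares 55.4% of its exon bases with another gene, so its counts come from the remaining bases. With the control input left out, its control log2 ratio went from 1.66 to 0.98, below the 2-fold criterion.

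LINC01409 had 41.8, 99.5, 32.1 and 73.7 in the order used above. Its counts were low but both pull-downs lay above both inputs. With the control input left out its control log2 ratio went from 1.17 to 0.80.

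LINC01589, a short gene of 548 exon bases near FBLN1, the gene of a matrix glycoprotein, went the other way. Normalised counts were 164 in the input and 58.2 on the beads with miR-491-5p, against 157 and 67.5 with the control. Both inputs were over 2-fold above both pull-downs. It lies on chromosome 22 from 45604432 to 45605621 (minus strand).

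The 2 transfections share no library, so the direction on beads can be compared between them. Over the 88 members the log2 ratios of pull-down over input correlated with r = 0.76 and Spearman rho = 0.76, a description across genes that share 2 pairs of libraries. Both ratios were above 0 in 38 members and below 0 in 36, and 14 lay on opposite sides. The same side was taken by 84.1% of the members, 76.8% of 452 other lncRNA genes and 72.7% of 10783 protein-coding genes. The control values spread wider (SD over members 0.83) than the miR-491-5p values (0.70).

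**Figure D3:**
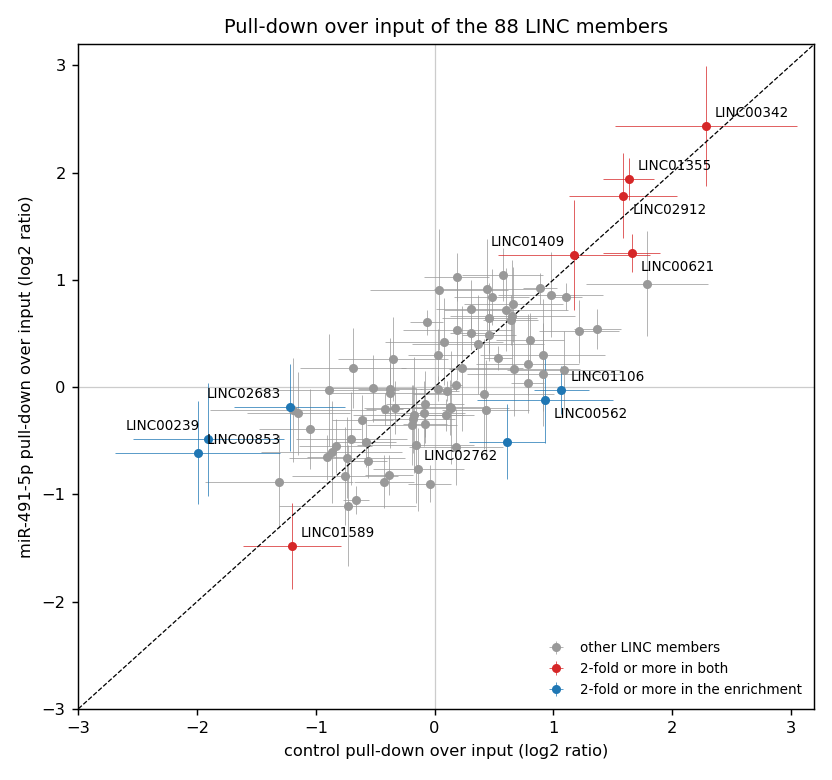
Pull-down over input (log2 ratio) of the 88 LINC members on control beads (x axis) and miR-491-5p beads (y axis), with 95% counting intervals; the dashed line marks equal values. The 6 red points pass 2-fold on both bead sets and lie near the line, and the 6 blue points pass 2-fold in the enrichment and lie off it, with miR-491-5p ratios between -0.61 and -0.02.

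Taking the transfections as 2 blocks, edgeR's quasi-likelihood test with Benjamini-Hochberg adjustment over all 12662 genes called 9 members as higher on beads and 2 as lower at an adjusted p under 0.05, with 1 residual degree of freedom. That is 10.2% and 2.27% of the members, against 6.48% and 10.4% of all genes and 15.0% and 7.96% of other lncRNA genes. The members that rose were LINC01355 (log2 change 1.82, adjusted p = 0.0047), LINC00342 (2.43, 0.0057), LINC00621 (1.48, 0.010), LINC02912 (1.73, 0.011), LINC00511 (1.00, 0.019), LINC01128 (0.93, 0.024), LINC00216 (1.42, 0.025), LINC01409 (1.25, 0.036) and LINC00680 (0.98, 0.042). LINC01589 (-1.33, 0.022) and LINC02274 (-0.83, 0.037) fell. Of the members that rose, LINC00342, LINC00216 and LINC01409 had both inputs under 50 and passed the count minimum through their pull-downs. Without the control input, which leaves 3 libraries and no room for the transfection block, edgeR called 0 members (9 at an unadjusted p under 0.05) and 0 of all genes. With the block alone left out and all 4 libraries kept, it called 7 members higher and 1 lower, beside 1979 of all genes. The DESeq2 Wald test on the 4 libraries, with the block, called 7 members higher and 2 lower, beside 1978 of all genes. With total counts edgeR called 10 members higher and 0 lower, beside 1490 of all genes. In the fits with the block, the p-values rest on how far pull-down over input differed between the 2 transfections of pooled RNA, with spread shared across genes. The 2 transfections carried different microRNAs, so this is not a spread between repeats of the experiment.

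LINC02274 was the second most abundant member per kilobase. Its counts after normalisation were 1279 (input) and 616 (pull-down) for miR-491-5p and 1744 (input) and 1101 (pull-down) for the control. Both pull-downs lay below both inputs. LINC00511, an RNA described in breast and lung carcinoma with 25 exon blocks, had 788, 1414, 745 and 1611, with both pull-downs near 2-fold above their inputs.

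LINC members sat higher on the beads than protein-coding genes did. The median log2 pull-down over input was -0.022 for the members, 0.0093 for other lncRNA genes, -0.17 for protein-coding genes and -0.15 for all genes with miR-491-5p. With the control microRNA the medians were 0.10, 0.13, -0.20 and -0.15. These medians are descriptions and were not tested against each other. Among the 37 members with no exon of another gene in their span the medians were -0.19 and -0.078. With miR-491-5p that is close to the -0.17 of protein-coding genes, but the lengths were unlike. The median exon length was 2147 bases in the 37 and 5219 in protein-coding genes. Protein-coding genes of 2 to 3 kb had medians of -0.40 (miR-491-5p) and -0.60 (control). Of 4 nuclear-retained lncRNAs, 3 passed the minimum and had higher values on both bead sets. MALAT1 had normalised counts of 24337, 54770, 18636 and 48630 over the 4 libraries, NEAT1 had 1236, 2962, 1108 and 2421, and KCNQ1OT1 had 244, 1030, 209 and 884. MEG3 had no count in 3 libraries and 7 reads in the control pull-down. How much nuclear RNA remained in the cleared lysates was not tested.

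Exon length went with the bead values. Among the 88 members Spearman's rho between exon length and pull-down over input was 0.37 for the miR-491-5p beads, 0.32 for the control beads and 0.05 for the enrichment. Over all genes it was 0.25, 0.29 and -0.12. These correlations are across genes of the same libraries and stand without a p. The rho between length and abundance among members was 0.19.

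The shortest members were the lowest on beads. Of the 11 members under 1 kb, 9 were below 0 on both bead sets, LINC01836 (870 bases) was above 0 on both, and LINC02244 (198 bases) was below 0 with miR-491-5p and above with control. The 11 had bead medians of -0.49 (miR-491-5p) and -1.05 (control). The 3 members highest in the enrichment, LINC00239 (639 bases), LINC00853 (661) and LINC02683 (684), are among these 11, whose median enrichment was 0.43. Under 1 kb the median enrichment was 0.28 in protein-coding genes, 0.071 in other lncRNA genes and -0.070 in all genes. The 17 members over 5 kb had bead medians of 0.27 and 0.44 and a median enrichment of 0.081. LINC01128, the longest at 9470 bases, had 573, 1085, 689 and 1275 normalised counts, with both pull-downs above both inputs.

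Within bins of exon length the members lay above protein-coding genes, though abundance was not matched. For the mean of both bead ratios the medians by exon length were -0.72, 0.11, -0.030, 0.49 and 0.40 for members under 1 kb, at 1 to 2, 2 to 3, 3 to 5 and over 5 kb. For protein-coding genes they were -1.07, -0.75, -0.49, -0.26 and 0.0023. The other lncRNA genes had -0.70, -0.11, 0.12, 0.21 and 0.45, on either side of the members. The members' bins hold 11 to 27 genes each, and the 4 bins with under 20 members (11, 15, 18 and 17) are thin. The median normalised count was 127 in members and 1950 in protein-coding genes. Among protein-coding genes the rho between abundance and pull-down over input was -0.28 (miR-491-5p) and -0.02 (control). Among members it was 0.08 and 0.16. The part of abundance in the distance was not tested.

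**Figure D4:**
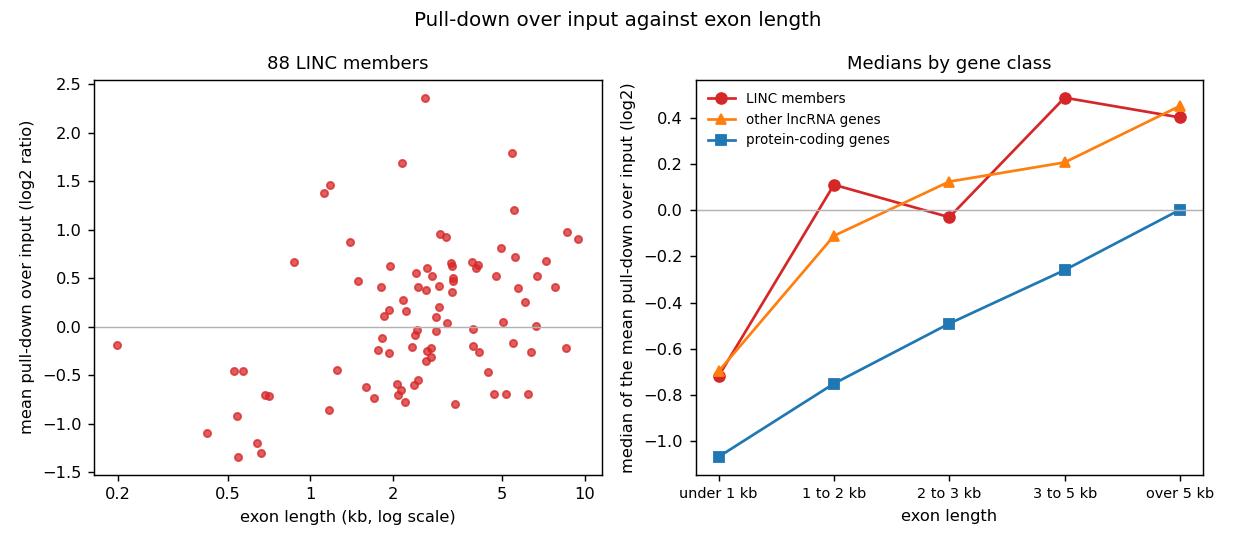
Left, mean of the 2 pull-down over input log2 ratios of each of the 88 LINC members against exon length in kb (log scale). Right, the medians of that mean by length bin for LINC members, other lncRNA genes and protein-coding genes; the members rise from -0.72 under 1 kb to 0.40 over 5 kb and lie above protein-coding genes in each bin.

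LINC genes often described in carcinoma formed a list of 29 from background knowledge, of which 22 were matched and 9 were members: LINC00205, LINC00239, LINC00339, LINC00342, LINC00467, LINC00511, LINC00641, LINC00680 and LINC00941. The list is not complete, and LINC00857 and LINC00958 are not on it. Their median enrichment was -0.27, with 3 above and 6 below 0, beside -0.0022 for all members and 0.0016 for all genes. LINC00239 was the sole one past 2-fold higher and 0 were past 2-fold lower, beside 3.41% of all members in each direction and 4.46% and 5.32% of all genes. Their bead ratios had medians of 0.27 (miR-491-5p) and 0.53 (control). LINC00342 passed 2-fold higher on both bead sets, and LINC00511, LINC00680 and LINC00205 on the control beads, while LINC00239 was lower there. On the control beads 12.5% of all members were higher and 9.09% lower, beside 8.61% and 10.0% of all genes. Higher on both bead sets were 5.68% of all members and 2.66% of all genes. LINC00680 had normalised counts of 357 in the input and 521 on the beads with miR-491-5p, against 333 and 861 with the control, with the control pull-down clearly highest. LINC00467, described in colorectal carcinoma, had 680, 364, 538 and 523 in that order. There the miR-491-5p pull-down alone was low, and the enrichment was -0.86 (-1.11 to -0.61).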

How the data were processed

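RNA libraries were made with a stranded total RNA kit, per the labels' protocols. The authors deposited whole-number read counts per gene, made with featureCounts 1.5.0-p1 on GENCODE release 24, per the file headers; its settings ignore strand and drop duplicate and multi-mapping reads and reads over several genes. Overlapping and antisense genes are therefore uncertain. STAR, DESeq2 1.10.1 and GRCh38 are named in the submitters' processing notes.

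Genes were named by position against RefSeq GRCh38.p14 (41612 of 60554; 728 with the reference moved by 3 Mb). A stricter match named 76 of the 88 members too and renamed 0. LINC00621, LINC00511, LINC00958 and LINC00205 are among the members named by the looser match alone. Counts were divided by DESeq2 1.42.0 size factors (0.957, 1.24, 0.778 and 1.13), and log2 ratios taken on normalised counts plus 1. Standard errors are counting errors with 0.5 added to each count. A call is a ratio of at least 2-fold whose 95% interval excludes 0. Pull-down against input was also tested with edgeR 4.0.16 (quasi-likelihood, TMM, transfection as a block). The ratio and edgeR steps were tested on simulated data, at other settings than the calls reported here. The simulated ratios held counting error alone and were called at a fold of 1.5. The simulated edgeR calls needed a 2-fold change besides an adjusted p under 0.05. These runs do not show how often the reported calls are right.

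The members, lists and length bins were chosen with earlier results of these data known. Genes named are the highest and lowest members of each ratio with intervals that exclude 0, the highest per kilobase, the longest and shortest, those next to the minimum and the carcinoma list; others are said to be chosen after their values were seen. A search of whole exons for seed matches was planned and not run, since no genome was used here.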

Additional observations from a re-analysis of the deposited data

Results flagged for a closer look

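LINC02762 was the member whose pull-down over input had opposite signs in the 2 transfections with both counting intervals excluding 0. The log2 ratio was -0.51 (-0.85 to -0.16) with miR-491-5p and 0.61 (0.29 to 0.93) with the control, a difference of -1.12 (-1.59 to -0.64). The inputs differed by 0.01 (-0.35 to 0.37), so the pull-downs carry the difference. The difference was not tested, since each value rests on 1 library of pooled RNA.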

How the results depend on the processing

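Counts of members past 2-fold are given in the order enrichment, pull-down ratio, input ratio, miR-491-5p beads, control beads and both beads, where they were 6, 4, 1, 10, 19 and 6. A count minimum of 200 left 35 members and counts of 1, 0, 0, 5, 5 and 2. A minimum of 10 gave 185 members and 27, 17, 17, 39, 49 and 17. A fold of 1.5 gave 24, 24, 8, 35, 44 and 22. The stricter match of names left 76 members and counts of 6, 4, 1, 8, 14 and 4. On the control beads 6 of these were higher and 8 lower, in place of 11 and 8. The 37 members with no exon of another gene in the span gave 2 in the enrichment, 2 in the pull-down ratio and 9 on the control beads. Adding 40 renamed LINC genes gave 7 in the pull-down ratio, 19 and 30 on the 2 bead sets and 13 on both. Total counts gave 18 on the miR-491-5p beads and 10 on both. The medians moved with total counts to 0.18 (enrichment), 0.16 (pull-down ratio), 0.30 (miR-491-5p beads) and 0.24 (control beads). In the members with no exon of another gene in the span they were -0.13 (enrichment), -0.19 and -0.078 (beads). The pull-down ratio had a median of -0.15 at a minimum of 200, and the miR-491-5p beads one of 0.17 at a minimum of 10. After removing the line on log2 exon length the bead medians were 0.14 and 0.27. edgeR called 17 members with no filter, against 11, and, in fits added after seeing the data, 0 without the control input and the transfection block and 8 without the block alone. Over all genes tested, edgeR called 3279 with no filter, against 2143 in the main fit. Where samples or genes were not changed by the setting itself, the cause was not tested. Of 72 values of named members, 72 kept their side with TMM, 70 with a pseudocount of 5 and 56 with total counts, where 10 newly passed and 6 no longer did; LINC02683 (0.98) and LINC00562 (-0.99) missed 2-fold in the enrichment with the pseudocount of 5, and none of the 72 changed sign after passing. The edgeR test pairs each pull-down with its own input through the transfection; the labels carry no replicate numbers to pair by. Depth limits the members under 100 normalised counts most; the median standard error of the enrichment was 0.27 in members and 0.077 in all genes.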

Other observations

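Neighbouring members could be compared at 2 places. LINC01409 and LINC01128 lie 15078 bp apart on the same strand of chromosome 1, and both were higher on the beads than in the inputs. Their log2 ratios were 1.23 and 0.92 (miR-491-5p) and 1.17 and 0.89 (control), with enrichments of 0.06 and 0.03. LINC01303 and LINC03033 start next to each other on opposite strands of chromosome 14. LINC01303 was below its input on both bead sets (-0.55 and -0.83), while LINC03033 had 0.18 (miR-491-5p) and -0.69 (control).

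The 14 members with 1 exon block had medians of 0.099 (miR-491-5p) and 0.52 (control) for pull-down over input. The 74 members with more than 1 block had -0.025 and 0.035. Their median exon lengths were 2317.5 and 2760 bases. These values were looked at after the data were seen and were not tested.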
